A study of Mus musculus with 4 samples.

Results

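The T-box genes encode transcription factors that bind DNA through a shared domain, the T-box, and 10 of them were followed here among 24453 genes counted in sorted mouse epidermis. The members were taken by name: Tbx1, Tbx2, Tbx3, Tbx4, Tbx5, Tbx6, Tbx15, Tbx18, Tbx20 and Tbx21. All 10 had a row in each count table, and 5 of them (Tbx1, Tbx2, Tbx3, Tbx6 and Tbx15) held enough reads to be tested. Cells came from the back skin of mice at postnatal day 0 and were sorted as EpCAM-positive, Sca1-positive and high for α6-integrin, which selects progenitors of the epidermis between hair follicles. There were 2 control libraries, whose labels say only that the genotype was control, and 2 libraries of the genotype Ring1a-/- Ring1b-/I53A. Ring1a (gene Ring1) and Ring1b (gene Rnf2) are the catalytic subunits of Polycomb repressive complex 1, which ubiquitinates histone H2A, and I53A is an allele of Ring1b whose product lacks that activity. The labels name no Cre driver, do not say which alleles the controls carry, and do not say whether the libraries came from separate animals, so p-values measure the spread between these libraries, which may be technical. Where both values of a group are given, replicate 1 comes first.

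T-box factors steer the formation of organs and tissues in the embryo, most of them in mesoderm and its derivatives, and several act in more than one place. Tbx2 and Tbx3 are mainly repressors, whereas Tbx4 and Tbx5 mainly activate genes of the limbs, heart and lung. Many T-box genes are known Polycomb targets in embryonic stem cells. In skin, Tbx1 is known from hair follicle stem cells, Tbx3 from proliferating basal cells of the embryonic epidermis, and Tbx15 and Tbx18 from the dermis, Tbx18 marking the early dermal papilla.

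Total counts ran from 15505018 to 21543385 per library, so that 1 read was worth 0.0441 to 0.0663 CPM (read counts scaled to a common library size), and 14550 genes passed the low-count filter. Ring1 was at 24.2 and 33.3 CPM in the controls against 2.54 and 2.91 CPM in the mutants, whereas Rnf2 was at 45.8 to 59.1 CPM in all 4 libraries. The sorted cells carried the basal keratinocyte markers, whose summed level over 10 genes was 30699 and 34240 CPM in the controls and 24194 and 21356 CPM in the mutants. Krt15 fell (adjusted p = 0.0254, and 0.377 without control replicate 1), and the other 9 did not pass the test, Krt14 among them at 3222 and 3408 CPM in the controls and 1944 and 2486 CPM in the mutants. Epcam, a sort marker, was at 107 and 85.9 CPM in the controls and 133 and 159 CPM in the mutants. Over the 10 basal markers the median log2 fold change was -0.18, against -0.01 over all tested genes. At an unadjusted p under 0.05 in edgeR's quasi-likelihood test, 1 of them was higher and 4 were lower. Markers of dermal fibroblasts were also present, with a summed level over 16 genes of 3041 and 3269 CPM in controls and 3681 and 4005 CPM in mutants.

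Tbx1 and Tbx3 rose in the mutant epidermis, by 9.85-fold and 8.91-fold in mean CPM, and no T-box member fell. Tbx2, Tbx6 and Tbx15 did not pass the test. Tbx5 had reads almost only in 1 mutant library, and Tbx4, Tbx18, Tbx20 and Tbx21 had few or no reads in either group. Together the 10 genes summed to 13.6 and 8.68 CPM in the controls against 45.5 and 60.9 CPM in the mutants.

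By edgeR's quasi-likelihood test at an adjusted p under 0.05, 2 of the 5 tested members passed, where 6.71% of all tested genes did. Both were higher, as were 5.68% of all tested genes, and none was lower, as were 1.04%. No member was lower at an unadjusted p under 0.05 either, nor by DESeq2 or limma-voom. Only their mutant reads carried Tbx1 and Tbx2 past the low-count filter, so the tested members are not a fair sample of the family. The control libraries alone would have kept 3 members (Tbx3, Tbx6 and Tbx15), of which 1 was called higher, where 5.18% of all such genes were. The mutant and control values did not overlap, with the mutants above, for 4 of the 5 tested members, as for 24.5% of all tested genes. For no member did both mutants lie below both controls, as they did for 23.5% of all tested genes.

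**Figure D1:**
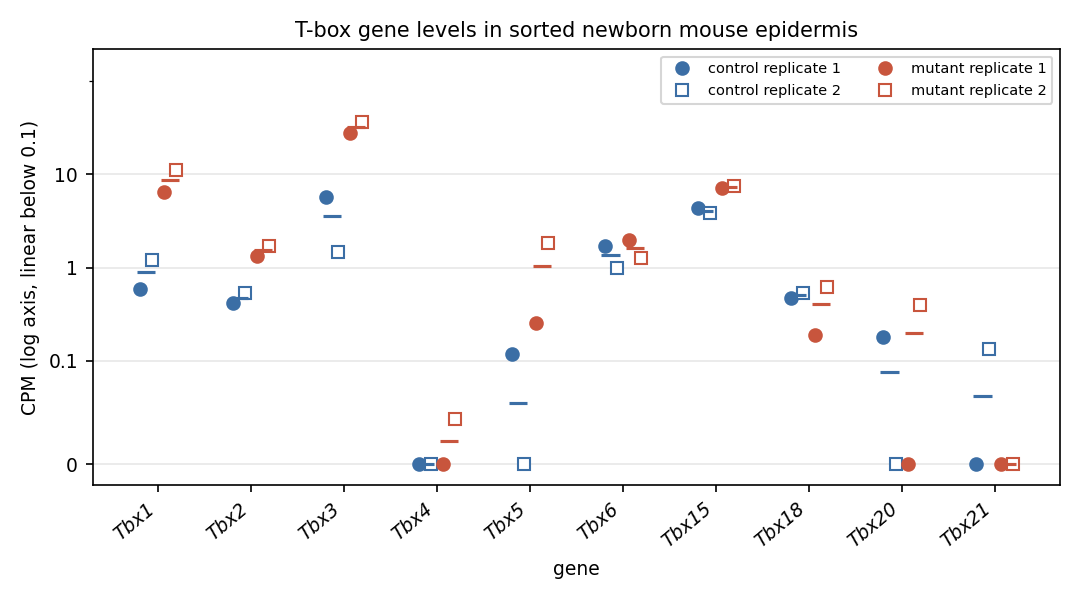
Level of each of the 10 T-box genes in CPM (vertical axis, logarithmic above 0.1 and linear below it) in the 2 control (blue) and 2 mutant (red) libraries. Each point is 1 library and each short line a group mean. Tbx1 and Tbx3 stand apart between the groups, Tbx15 and Tbx2 less so, and Tbx4 and Tbx21 lie at or near 0.

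Tbx3 encodes a repressor known for its part in limb, mammary gland and heart conduction system development. In GRCm38 (mm10) it spans positions 119670669 to 119684724 of chromosome 5, plus strand. Read counts were 97 and 22 in the controls against 443 and 822 in the mutants, or 5.77, 1.46, 28.2 and 36.2 CPM in the same order. The lowest mutant value was well above the highest control value, and as a ratio the controls differed from each other more than the mutants did. The means were 3.62 ± 3.05 CPM in controls and 32.2 ± 5.69 CPM in mutants (SD, n = 2 each), and log2 of the fitted ratio was 3.13 ± 0.41 (SE), with an adjusted p of 0.00136. The size of the change rested on which control was used, since the log2 fold change was 4.46 without control replicate 1 and 2.48 without control replicate 2, with the call kept in both cases (adjusted p = 0.00473 and 0.000371).

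Tbx5, a factor of forelimb and heart, lies next to Tbx3 on chromosome 5, from 119832668 to 119885219, with 148 kb between them. It had 2 and 0 counts in the controls against 4 and 42 counts in the mutants. Mutant replicate 2 was thus the only library above 1 CPM, at 1.85 CPM, and mutant replicate 1 stood at 0.255 CPM, close to the 0.119 CPM of control replicate 1. Pooled over the libraries of each group, the ratio of mutant to control was 19.1 with a 95% counting interval from 4.99 to 162, which does not cover the spread between libraries. Tbx5 missed the low-count filter, and without that filter its adjusted p was 0.145. Among the fits that it entered, it was called higher only where mutant replicate 1 was left out (adjusted p = 0.00927), which leaves mutant replicate 2 alone in its group, and not without control replicate 1 or 2 (0.468 and 0.632).

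Tbx2 is the close relative of Tbx3 and likewise a repressor, known from heart, limb and lung, and lies beside Tbx4 on chromosome 11, from 85832551 to 85841948. Its counts were 7 and 8 in the controls against 21 and 39 in the mutants, or 0.417, 0.530, 1.34 and 1.72 CPM. Both mutant values were above both control values, but the log2 fold change of 1.71 ± 0.71 (SE) did not pass edgeR's test (adjusted p = 0.223). Tbx4, a hindlimb and lung factor 44.5 kb further along the chromosome, had 1 read in mutant replicate 2 and none in the other 3 libraries. A count of 0 allows up to 3 counts, or 0.132 to 0.199 CPM depending on the library, so a lower level of Tbx4 was not detectable at this depth.

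The genes around these pairs did not pass the test. For the pair on chromosome 5, the nearest tested protein-coding genes were Med13l, a subunit of the Mediator kinase module, 905 kb before Tbx3, and Rbm19, an RNA-binding protein, 231 kb after Tbx5. Med13l was at a mean of 271 CPM in controls and 273 CPM in mutants, and Rbm19 at 16.3 and 17.3 CPM (adjusted p = 0.990 and 0.922). For the pair on chromosome 11, Bcas3, 6.49 kb before Tbx2, was at 22.2 CPM in controls and 18.9 CPM in mutants, and Brip1, a DNA helicase 142 kb after Tbx4, at 33.3 and 31.2 CPM (adjusted p = 0.697 and 0.874). The noncoding gene 2610027K06Rik starts 0.328 kb before Tbx2 on the opposite strand, and had 35 and 37 counts in the controls against 65 and 25 in the mutants, so its groups overlapped. Next to Tbx3, the noncoding gene Tbx3os2 had 2 counts in mutant replicate 2 and 0 in the other libraries.

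**Figure D2:**
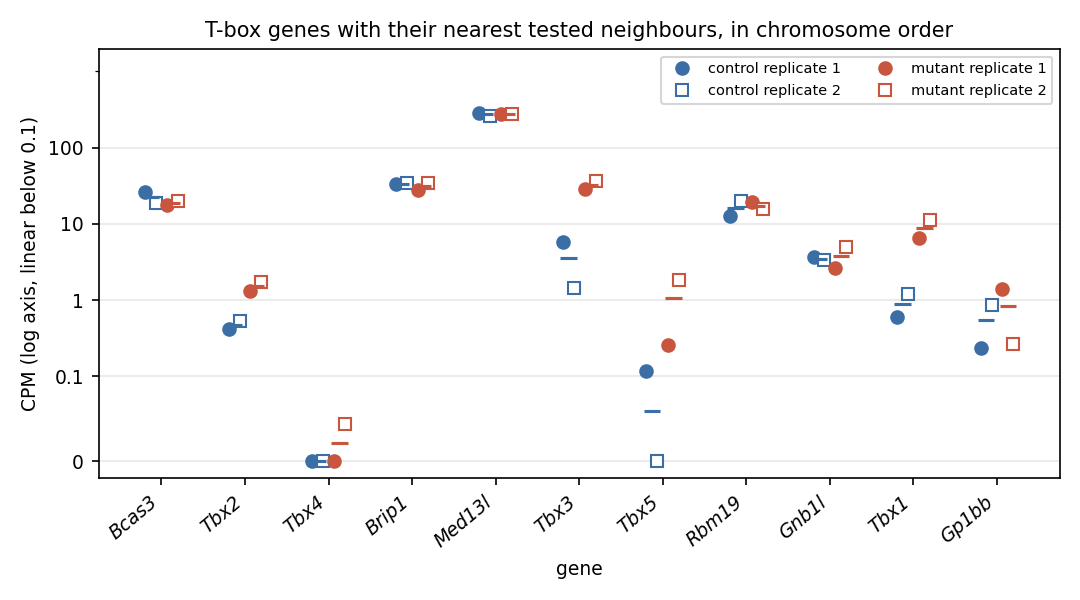
Levels in CPM (vertical axis, logarithmic above 0.1 and linear below it) of T-box genes and the nearest tested protein-coding gene on each side, in chromosome order within the chromosome 11, 5 and 16 regions, with 1 point per library and a line at each group mean. Tbx3 and Tbx1 are higher in both mutant libraries, whereas Bcas3, Brip1, Med13l, Rbm19, Gnb1l and Gp1bb did not pass the test.

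Tbx1, a factor of the pharyngeal arches and a gene of the DiGeorge syndrome region, was the other member that rose. It spans positions 18580979 to 18590671 of chromosome 16, minus strand. Read counts were 10 and 18 in the controls against 101 and 254 in the mutants, or 0.595, 1.19, 6.43 and 11.2 CPM. Both mutants were far above both controls, and mutant replicate 2 was above mutant replicate 1. The means were 0.894 ± 0.423 CPM in controls and 8.81 ± 3.37 CPM in mutants (SD, n = 2 each), and log2 of the fitted ratio was 3.35 ± 0.54 (SE), with an adjusted p of 0.00458. The call was lost without control replicate 1, where the log2 fold change was 2.90 and the adjusted p 0.0868. The nearest tested genes, Gnb1l at 3.47 CPM in controls and 3.77 CPM in mutants and Gp1bb at 0.550 and 0.832 CPM, did not pass the test (adjusted p = 0.903 and 0.876).

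Hair follicle markers were read beside Tbx1, since it is known from follicle stem cells. Of 9 tested markers 2 rose and none fell, where 5.68% and 1.04% of all tested genes did. The summed level over the list of 10 was 675 and 676 CPM in the controls and 963 and 1058 CPM in the mutants. Lhx2, a homeobox factor of follicle stem cells, rose with a log2 fold change of 1.83 (adjusted p = 0.000298), and Krt79, a keratin of the upper follicle, with one of 1.25 (adjusted p = 0.0355). The call of Krt79 was lost without control replicate 1 (adjusted p = 0.374), without mutant replicate 2 (0.0628) and with limma-voom (0.0662). The part of these cells in the Tbx1 level was not tested.

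Of the 10 members, 6 had a promoter window in the RefSeq table used (GRCm38.p6), and Tbx1, which has a pair of start sites there, was the only one of these that was called. CpG dinucleotides in a promoter are of interest because Polycomb complexes are known to gather at CpG-rich promoters. The 250 bases before each Tbx1 start, and before the start of Tbx6 as a measured member that was not called, are shown with CpG in capitals. They are read along the minus strand for Tbx1 and the plus strand for Tbx6.
Tbx1, upstream start, chr16:18590672-18590921: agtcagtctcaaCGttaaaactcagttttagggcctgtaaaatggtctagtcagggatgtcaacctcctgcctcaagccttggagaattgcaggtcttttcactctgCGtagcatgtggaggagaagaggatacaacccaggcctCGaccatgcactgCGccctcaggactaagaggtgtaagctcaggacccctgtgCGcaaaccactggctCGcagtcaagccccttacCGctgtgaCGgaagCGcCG
Tbx1, downstream start, chr16:18588900-18589149: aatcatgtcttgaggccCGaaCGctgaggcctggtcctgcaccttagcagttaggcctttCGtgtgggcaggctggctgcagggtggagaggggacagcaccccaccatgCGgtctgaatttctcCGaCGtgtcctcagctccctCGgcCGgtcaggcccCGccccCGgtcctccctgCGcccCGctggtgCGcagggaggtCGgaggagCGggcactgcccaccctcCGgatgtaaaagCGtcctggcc
Tbx6, chr7:126781233-126781482: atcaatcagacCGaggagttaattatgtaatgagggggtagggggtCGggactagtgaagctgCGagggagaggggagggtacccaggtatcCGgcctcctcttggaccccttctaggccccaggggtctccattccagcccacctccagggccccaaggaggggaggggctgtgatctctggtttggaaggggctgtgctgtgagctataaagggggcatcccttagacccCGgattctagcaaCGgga
In windows of 300 bases that also take in the first 50 bases after the start, Tbx1 held 16 CpG at the upstream and 26 at the downstream start, and Tbx6 held 7, the median over 32851 windows of all genes. Tbx18, Tbx20, Tbx21 and Tbx4, which were not tested, held 15, 26, 21 and 8. The T-box half-site AGGTGTGA, searched on both strands, was in 0 of the 7 member windows and in 1.28% of all windows, which says only that these letters are not there.

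Tbx15 and Tbx18 belong to the same subfamily as Tbx1. Tbx15, a factor of dermal and skeletal development that shapes the pattern of coat colour, lies on chromosome 3 from 99240381 to 99354259. It had 73 and 58 counts in the controls against 112 and 171 in the mutants, or 4.35, 3.84, 7.13 and 7.54 CPM. The groups did not overlap and each was tight, with means of 4.09 ± 0.355 CPM in controls and 7.33 ± 0.290 CPM in mutants (SD, n = 2 each). The difference, a log2 fold change of 0.84 ± 0.34 (SE), did not pass edgeR's test (adjusted p = 0.220). Tbx18, on chromosome 9 from 87702800 to 87731260, had 8 counts in each control and 3 and 14 counts in mutant replicates 1 and 2. The mutant values lay on either side of the controls, and the pooled ratio of mutant to control was 0.882 with a 95% counting interval from 0.419 to 1.87. Tbx20, a heart factor of chromosome 9, had 3 and 0 counts in the controls against 0 and 9 in the mutants, with a pooled ratio of 2.49 (interval 0.622 to 14.3).

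Because Tbx15 and Tbx18 are known from dermal cells, fibroblast and dermal papilla markers were read beside them. Of 16 fibroblast markers 4 rose (Col5a1, Dcn, Thy1 and Fbn1) and none fell, where 5.68% and 1.04% of all tested genes did. The controls alone would not have kept Twist1. Of the 15 that they would have kept, 4 rose, where 5.18% of all such genes did. Col5a1, a fibrillar collagen chain, rose with a log2 fold change of 1.18 (adjusted p = 0.000995), whereas Col1a1 and Pdgfra did not pass the test (adjusted p = 0.111 and 0.246). Without control replicate 1 the calls of Col5a1, Thy1 and Dcn were lost (adjusted p = 0.0508, 0.0787 and 0.159), and without control replicate 2 that of Dcn (0.499). Of 6 tested dermal papilla markers 2 rose, Prdm1 and Trps1, and none fell, where 5.68% and 1.04% of all tested genes did. Epidermal and hair cells also express both. Alx4, Crabp1 and Fgf7 would not have been kept by the controls alone. Of the 3 that the controls would have kept, 2 rose, where 5.18% of all such genes did. The call of Prdm1 was lost without either control, and its log2 fold change ranged from 1.08 to 1.38 over the left-out libraries. Sox2, a defining marker of the papilla, had 0 reads in both controls and 1 and 5 in the mutants. The summed level of the papilla list was 33.2 and 30.2 CPM in the controls and 112 and 124 CPM in the mutants. This sum takes in Prdm1 and Trps1, and can therefore not be read as a level of papilla cells. The part of dermal cells in the Tbx15 or Tbx3 levels was not tested. In bulk RNA more cells of a type cannot be told apart from more RNA per cell.

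Tbx6 makes paraxial mesoderm, the source of the somites, and lies on chromosome 7 from 126781483 to 126785560. It had 29 and 15 counts in the controls against 31 and 29 in the mutants, or 1.73, 0.994, 1.97 and 1.28 CPM. The groups overlapped, and the log2 fold change, 0.19 ± 0.60 (SE) with an adjusted p of 0.922, changed sign when control replicate 2 or mutant replicate 1 was left out. Its neighbours Ypel3 and Ppp4c, 0.969 kb before and 0.306 kb after it, did not pass the test either (adjusted p = 0.495 and 0.999). Tbx21, or T-bet, the master regulator of type 1 helper T cells, had 2 reads in control replicate 2 and none in the other 3 libraries. Of the T cell list, the defining markers Cd3d, Cd3g and Cd7 had 0 counts in every library, and Cd3e had 6 and 11 counts in the controls against 0 and 1 in the mutants. Of its 3 tested genes, Thy1, which fibroblasts also express, rose, where 5.68% of all tested genes did. Ptprc, the leukocyte antigen CD45, and Il2rb did not pass the test (adjusted p = 0.0677 and 0.672). Il2rb would not have been kept by the controls alone. Of the 2 that the controls would have kept, 1 rose, where 5.18% of all such genes did. The summed level of the list was 29.2 and 35.9 CPM in the controls and 84.2 and 74.0 CPM in the mutants. This sum takes in Thy1, the only called gene of the list, which is also on the fibroblast list. It can therefore not be read as a level of T cells, and the part of T cells in the T-box levels was not tested.

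Levels were compared between genes per length, as CPM per kb of the longest annotated transcript. In controls Tbx15 was the highest at 1.15 ± 0.0995 CPM per kb, followed by Tbx6 at 0.788 ± 0.300, Tbx3 at 0.726 ± 0.613 and Tbx1 at 0.356 ± 0.168 (SD, n = 2 each). Neighbours in this order did not differ beyond their summed SDs, and Tbx15 and Tbx1 did. Tbx2 at 0.131 and Tbx18 at 0.108 CPM per kb came next and lay within their SDs of each other, and the other 4 members were at or under 0.0266. In mutants Tbx3 led at 6.46 ± 1.14 CPM per kb, followed by Tbx1 at 3.51 ± 1.34, Tbx15 at 2.06 ± 0.0814, Tbx6 at 0.941 ± 0.284 and Tbx2 at 0.421 ± 0.0746. The gap between Tbx1 and Tbx15 was about the size of their summed SDs, the gaps between Tbx3 and Tbx1, Tbx15 and Tbx6, and Tbx6 and Tbx2 were larger than theirs, and Tbx5, at 0.267 ± 0.286, was not apart from Tbx2.

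The members could be told apart by their reads. Of all windows of 100 nucleotides, the read length, in the annotated transcripts of the 10 genes, 0 were shared between any pair of members, and the longest identical stretch between the longest transcripts of 2 members was 32 nucleotides, for Tbx4 and Tbx20. Tbx3 shared 0.253% of its windows with the antisense gene Tbx3os1 on the opposite strand, and Tbx18 shared 15.9% with the opposite strand of D030062O11Rik. The strand setting of the counting is not given in the sources used here, so reads of these antisense genes could have been counted to Tbx3 or Tbx18.

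**Figure D3:**
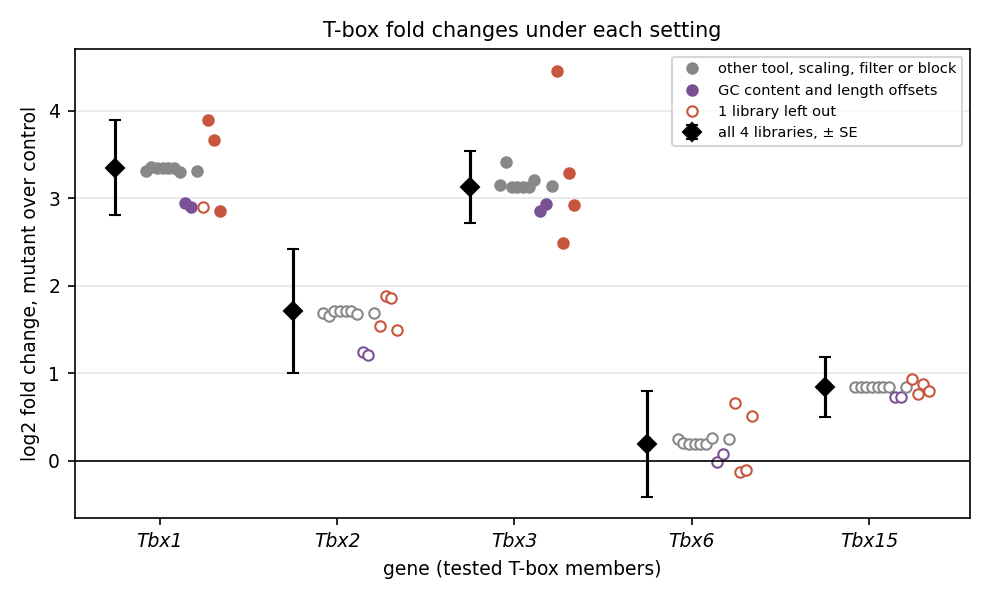
Log2 fold change of mutant over control (vertical axis) for the 5 tested T-box members. Black diamonds show the fit to all 4 libraries with its SE, and circles show the 14 alternatives, filled where the adjusted p was under 0.05. Every circle is filled for Tbx3 and all but 1 for Tbx1, and none is filled for Tbx2, Tbx6 or Tbx15.

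Of 7 other T-box genes in the files 2 were tested, and edgeR called neither, with 0 at an unadjusted p under 0.05 and 0 called by DESeq2 or limma-voom. Mga, which joins a T-box to a Myc-type domain and belongs to the PRC1.6 variant of the Polycomb complex, was the family's most strongly read gene at 411 ± 18.0 CPM in controls and 462 ± 5.41 CPM in mutants (SD, n = 2 each), and its log2 difference of 0.17 ± 0.13 did not pass (adjusted p = 0.582). Tbr1, a factor of cortical neurons, had 9 and 2 counts in the controls against 12 and 26 in the mutants (log2 fold change 1.497 ± 0.87, adjusted p = 0.421). Tbx10 had its reads mostly in controls, with 5 and 26 counts in the controls against 0 and 1 in the mutants. It missed the low-count filter, and its pooled ratio of mutant to control was 0.0268 with a counting interval from 0.000657 to 0.161. That interval does not cover the spread between libraries. Without the filter the log2 fold change of Tbx10 was -4.89 (adjusted p = 0.127, edgeR quasi-likelihood test). Eomes had 9 and Tbx22 had 8 counts in mutant replicate 2, while the other 3 libraries together gave 1 and 0. T (brachyury) had 2 reads, in control replicate 1, and Tbx19 had none.

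Genes that act before or together with T-box factors included 4 that rose among 14 tested, where 5.68% of all tested genes did, and none fell. The control libraries alone would not have kept 3 of the 14 (Pitx1, Six2 and Gata6), which entered through their mutant reads, so the count over all 14 favours genes that are high in mutants. Of the 11 that the controls alone would have kept, 2 rose (Bmp4 and Runx3), where 5.18% of all such genes did. The median log2 fold change of the 11 was 0.97. Over all tested genes, kept by the controls alone or not, it was -0.01. Bmp4, a ligand of the BMP pathway, which is known to switch on Tbx2 and Tbx3 in several embryonic tissues, was at 8.93 and 9.61 CPM in the controls against 49.9 and 47.5 CPM in the mutants (log2 fold change 2.39 ± 0.20, adjusted p = 0.000132). Its replicates lay close together and its groups far apart. Six2, a homeobox regulator of kidney progenitors, was at 0.238 and 0.265 CPM in the controls and at 29.7 and 22.4 CPM in the mutants (log2 fold change 6.65 ± 0.47, adjusted p = 3.36e-05). Pitx1, which drives Tbx4 in the hindlimb, had 3 and 4 counts in the controls against 84 and 45 in the mutants (log2 fold change 3.93 ± 0.90, adjusted p = 0.0235), while Tbx4 itself had 1 read in all. Runx3, which acts with T-bet in T cells, was at 4.46 and 11.9 CPM in the controls and at 22.1 and 37.3 CPM in the mutants (log2 fold change 1.89 ± 0.40, adjusted p = 0.0176). Without control replicate 1 the number that rose was 2 (Bmp4 and Six2), since Pitx1 and Runx3 missed the threshold (adjusted p = 0.296 and 0.184). Pitx1 also missed it without control replicate 2 (0.0958) and with limma-voom (0.109), and the log2 fold change of Runx3 was 2.74 without control replicate 2.

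The corepressors that T-box factors recruit were read in both groups. Tle1, Tle2, Tle3 and Tle4, of the Groucho family, did not pass the test (adjusted p = 0.338, 0.305, 0.522 and 0.723), and neither did Ripply3, the adaptor between Tbx1 and Groucho, at 14.3 to 19.8 CPM over the 4 libraries (adjusted p = 0.871).

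Of 12 tested genes reported elsewhere as T-box targets, none passed edgeR's test in either direction, with a median log2 fold change of -0.08, against -0.01 over all tested genes. At an unadjusted p under 0.05, 3 were higher and 2 were lower, and DESeq2 and limma-voom called none. Cdh1, the epithelial cadherin that Tbx2 and Tbx3 are known to repress, was at 1317 and 1232 CPM in the controls against 1624 and 1361 CPM in the mutants (log2 fold change 0.23 ± 0.15, adjusted p = 0.492). Gja1, a connexin repressed by Tbx2 and Tbx3 in the heart, was at 497 and 504 CPM in the controls and at 680 and 577 CPM in the mutants (log2 fold change 0.33 ± 0.14, adjusted p = 0.245). Cdkn2a, a cell cycle inhibitor locus that both factors repress in cultured cells, had 0 counts in all 4 libraries. Cdkn1a, a cell cycle inhibitor gene, was called lower only with the offsets for GC content and transcript length, without and with the replicate block (log2 fold change -0.57 and -0.56).

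**Figure D4:**
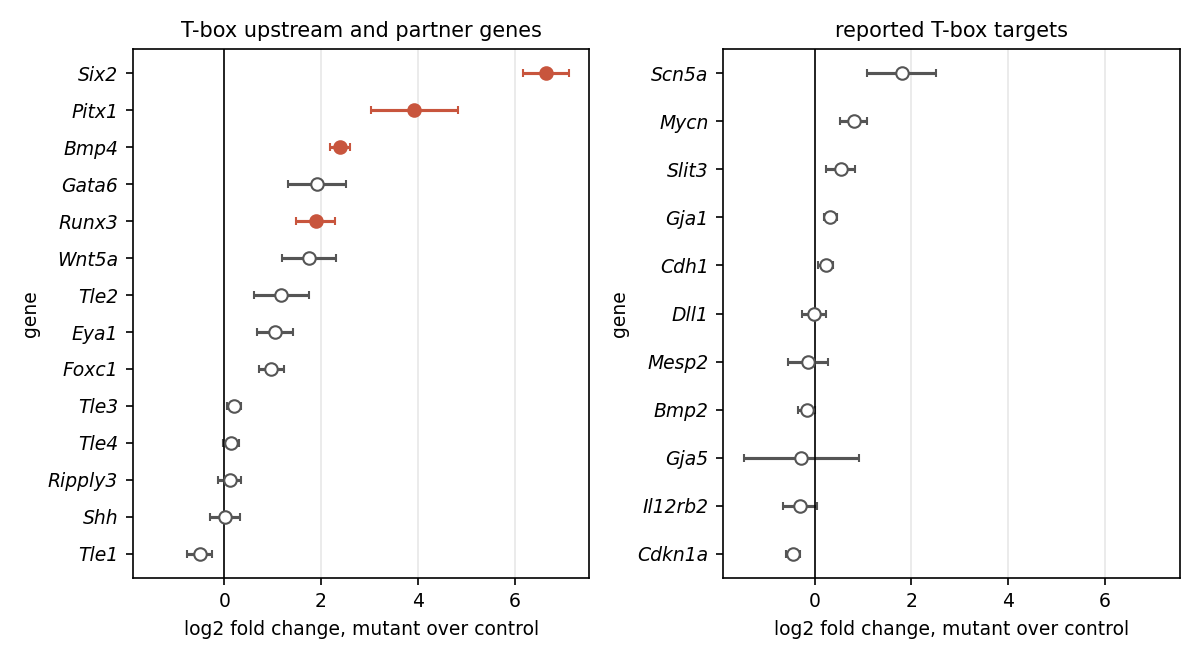
Log2 fold change of mutant over control (horizontal axis, ± SE) for the tested genes of the upstream and partner list (left) and of the reported target list (right), ordered by fold change, with 1 tested gene of the right list not shown. Red filled points passed edgeR's test. Six2, Pitx1, Bmp4 and Runx3 did so on the left and no gene on the right.

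The genes whose levels over the 4 libraries lay nearest to those of the called members, by Euclidean distance of log2 CPM, were Pde10a (distance 0.452) and Acot7 (0.673) for Tbx1, and Kcnn3 (0.645) and Shisa7 (0.979) for Tbx3. Pde10a, a cyclic nucleotide phosphodiesterase, was at 0.655, 0.994, 7.70 and 13.4 CPM in control replicates 1 and 2 and mutant replicates 1 and 2. Kcnn3, a calcium-activated potassium channel, was at 4.35, 1.59, 24.0 and 26.8 CPM in the same order, so that it too was higher in control replicate 1 than in control replicate 2. These genes were picked for this likeness over 4 libraries, which is a description only.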

How the data were processed

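Per the labels' protocols, 10 ng of total RNA from the sorted cells was amplified (Ovation RNA-seq System V2) and sequenced as single reads of 100 nucleotides. The build mm10 and the tools HTSeq 0.6.1, DESeq2 1.6.3, TopHat2 2.0.13 and Cufflinks 2.2.1 stand in the submitters' processing notes, without roles. Which annotation, strand setting and counting tool were used is not given in the sources used here. Deposited by the authors were raw counts of reads for each gene symbol.

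Groups came from the sample titles. Genes were filtered with filterByExpr (minimum count 10, minimum total 15), which left 14550 genes, scaled with TMM, and compared with edgeR 4.0.16 in R 4.3.3 (glmQLFit and glmQLFTest, two-sided, no block). P-values were adjusted by Benjamini-Hochberg over all tested genes, with a threshold of 0.05. The SE is the log2 fold change over the root of its F statistic. Total counts per library of 15505018 to 21543385 make 3 counts, the floor for a gene without reads, 0.132 to 0.199 CPM. Ratios of pooled counts have exact binomial intervals (95%), which cover counting error only, since reads carry no molecular identifiers. The fit was tested on simulated counts with 50 changed genes per size of change, drawn over all levels. It recovered 6% of 1.5-fold, 42% of 2-fold, 76% of 4-fold and 94% of 8-fold changes, with 7 false calls. A member that did not pass may therefore still have changed by a few-fold. Positions and transcripts came from GENCODE M21 (GRCm38), matched by symbol for 97.3% of genes.

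The alternatives tried were limma-voom (limma 3.58.1), DESeq2 1.42.0, upper-quartile and RLE scaling, no filter, at least 1 CPM in at least 2 libraries, a replicate block, loess offsets (span 0.5) for GC content and transcript length without and with the block, and each library left out in turn. The earlier quasi-likelihood fit of edgeR, and the counts of listed genes that the controls alone would keep, were added after seeing the data. A left-out library leaves an arm with 1 library, which is assumed to vary like the other arm.

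The members and gene lists were chosen with earlier results of these data known. The text names the members, Ring1, Rnf2, the other T-box genes, and the called genes of the partner and target lists (or the 2 most abundant where none was called). It also names the nearest tested protein-coding gene on each side of called members, and the 2 genes nearest to each called member in level. Genes overlapping a member or starting within 10 kb of it are named where they were among the counted genes. Several were not, such as 4930588K23Rik near Tbx1 and Gm43120, which overlaps Tbx15. Other genes in the text were picked with their values in view. Some genes of the target list are not reported here by name.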

Additional observations from a re-analysis of the deposited data

How the results depend on the processing

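Tbx3 was called higher under all 14 alternatives (log2 fold change 2.48 to 4.46 over the left-out libraries) and Tbx1 under 13, with 2.86 to 3.90 over the left-out libraries. Tbx2, Tbx6 and Tbx15 were called under none. The number of members called higher was 1 to 3 over the left-out libraries (1 without control replicate 1, and 3, with Tbx5, without mutant replicate 1) and 2 otherwise, and no member was called lower. Tbx6 reversed under the offsets for GC and length (-0.0185) and ranged from -0.13 to 0.66 over the left-out libraries. The offsets moved the median of all genes by -0.12 and gave 731 higher and 701 lower genes, against 826 and 151 (51.0% of calls higher, against 84.5%). All calls numbered 289 to 1586 over the left-out libraries (251 to 1198 higher, 38 to 404 lower), with 289 without control replicate 1, 603 without control replicate 2, 1580 without mutant replicate 1 and 1586 without mutant replicate 2. DESeq2 called 232 lower.

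The labels do not say what a shared replicate number marks. The correlation of the deviations of same-numbered libraries from their group means was 0.041 across genes. With 2 libraries per group this value cannot tell whether the libraries were paired. The replicate block gave 1042 higher and 232 lower genes and left the calls of the members as they were, and with the offsets it gave 2221 calls, 1182 of them lower. Over the left-out libraries the partner genes called higher numbered 2 to 6, and the target genes 0 to 2 (2 without mutant replicate 2). The offsets called 2 targets lower, also with the block, which called 1 partner gene, Tle1, lower.

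Genes near 0 changed sign without a call. With the offsets, and with the block and the offsets, the log2 fold changes were -0.10 and -0.10 for Mga, -0.0861 and -0.15 for Gnb1l, -0.38 and -0.38 for Med13l, -0.22 and -0.20 for Rbm19, -0.00823 and -0.0176 for 2610027K06Rik (-0.23 with limma-voom), and -0.0828 and -0.0494 for Ppp4c. Ppp4c was also at -0.000817 with RLE scaling, -0.000498 with upper-quartile scaling and -0.00225 without the filter. Over the left-out libraries the ranges were -0.42 to 0.51 for Gnb1l, -0.99 to 1.615 for Gp1bb, -0.0735 to 0.0856 for Med13l, -0.20 to 0.43 for Rbm19, -1.03 to 0.87 for 2610027K06Rik and -0.26 to 0.34 for Ppp4c. The cause was not tested. Depth limits Tbx4, Tbx5, Tbx18, Tbx20 and Tbx21, whose counts were too few to test.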

Other observations

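Among the nearest tested protein-coding genes on each side of the members that were not tested, 2 rose besides Tbx3. None fell, where 5.68% of all tested genes rose and 1.04% fell. Nt5e and Tbkbp1, which rose, were chosen after their values were seen. The rest, Tbx2, Brip1, Rbm19, Cep162, Dpy19l1, Herpud2 and Osbpl7, did not pass the test. Nt5e, an ectonucleotidase that makes adenosine, lies 596 kb from Tbx18 on chromosome 9 and had 49 and 27 counts in the controls against 344 and 558 in the mutants (log2 fold change 3.29, adjusted p = 0.000298, edgeR quasi-likelihood test), where Tbx18 had 3 and 14 in the mutants. Tbkbp1, an adaptor of the kinase TBK1, lies 20.8 kb from Tbx21 on chromosome 11 and had 10 and 25 counts in the controls against 89 and 119 in the mutants (log2 fold change 2.30, adjusted p = 0.0261). Leaving out control replicate 1 ended that call (0.324). The control libraries alone would not have kept Tbkbp1 for testing. Tbx21 itself had no reads in the mutants.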
